A study of Mus musculus with 12 samples.

Results

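The CCN family and the Yap/Taz pathway were followed through 10 genes in mouse embryonic fibroblasts (MEFs) with and without TG2 (transglutaminase 2, encoded by Tgm2). The genes were taken by their symbols from the table of normalised values: Ctgf, Cyr61, Nov, Wisp1 and Wisp2 of the CCN family, and Yap1, Wwtr1 (which encodes Taz), Ankrd1, Amotl2 and Lats2 of the pathway. All 10 were found among the 45808 genes of the table, and all 10 passed the filter on low values. Messenger RNA was sequenced from C57BL/6 MEFs of wild-type (WT) or TG2 -/- (KO) embryos that had been immortalised by passaging. There were 4 groups of 3 libraries each. The WT control and KO control cells were kept at 37 °C, and those of the WT heat shock and KO heat shock groups spent 20 min at 42 °C in a water bath. All cells grew in medium with fetal bovine serum, and no group received another agent. The WT and KO cells are separately immortalised lines, so the genotype and any difference between the lines cannot be told apart. The sources used here do not say whether a group's 3 libraries were separate cultures, so the tests measure the spread between these libraries, which may be technical.

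CCN proteins are small secreted proteins of the extracellular matrix that bind integrins and other receptors and shape how fibroblasts adhere, migrate and lay down matrix. Yap and Taz are paralogous transcriptional coactivators that enter the nucleus of spread, tense or sparse cells and switch on genes through the DNA-binding Tead factors, and Ctgf, Cyr61, Ankrd1 and Amotl2 are among the best known of these genes. The Hippo kinase cascade opposes them: the kinases Lats1 and Lats2 phosphorylate Yap and Taz, which are then held in the cytoplasm or degraded. Lats2 and Amotl2 are both inhibitors of Yap and targets of it, so that the pathway feeds back on itself.

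The start regions of 6 of these genes carry the letters GGAATG, the core that Tead factors recognise, and they are shown because genes with the same letters moved in different directions below. RefSeq promoters on GRCm38.p6, from 250 bases before to 50 bases after the transcription start, were matched for 6 of the 10 genes by symbol (Cyr61, Yap1, Wwtr1, Ankrd1, Amotl2 and Lats2, with 8 promoters in all). Ctgf, Nov, Wisp1 and Wisp2 were not matched. GGAATG was searched on both strands (CATTCC on the opposite strand), and at least 1 match lay in 7 of the 8 promoters and in each of the 6 genes. Of all 32851 promoters of the same length, 14.7% held the letters, and 1.36% held them at least 2 times, as Ankrd1 did. The genes were picked in part as known targets of Yap and Taz, so these matches are a description. Heat shock factors bind repeats of GAA and TTC, and TTCNNGAA and GAANNTTC, each its own reverse complement, were searched as well. TTCNNGAA was found in Cyr61 and at a second start of Lats2, and in 8.52% of all promoters, while GAANNTTC was found in Ankrd1 and in 7.86% of all promoters. Capitals mark the matches, and the bases run from -250 to -1 before the start, except for Lats2, which runs from -10 to 20.
Cyr61 chr3:145649986-145650235 (- strand): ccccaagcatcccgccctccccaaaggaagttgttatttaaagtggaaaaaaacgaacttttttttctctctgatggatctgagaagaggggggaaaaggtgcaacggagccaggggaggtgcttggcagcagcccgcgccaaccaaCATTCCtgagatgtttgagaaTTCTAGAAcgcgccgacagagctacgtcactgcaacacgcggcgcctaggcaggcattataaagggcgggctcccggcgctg
Yap1 chr9:8004597-8004846 (- strand): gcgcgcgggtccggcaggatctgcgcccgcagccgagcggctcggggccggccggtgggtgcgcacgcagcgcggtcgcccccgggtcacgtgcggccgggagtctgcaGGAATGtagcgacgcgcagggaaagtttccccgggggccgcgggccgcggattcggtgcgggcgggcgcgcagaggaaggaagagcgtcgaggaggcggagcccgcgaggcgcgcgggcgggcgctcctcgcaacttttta
Amotl2 chr9:102717554-102717803 (+ strand): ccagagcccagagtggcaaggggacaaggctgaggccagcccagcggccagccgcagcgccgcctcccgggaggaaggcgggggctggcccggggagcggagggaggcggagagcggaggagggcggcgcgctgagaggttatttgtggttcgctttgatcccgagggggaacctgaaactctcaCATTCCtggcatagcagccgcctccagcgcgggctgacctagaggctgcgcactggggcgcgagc
Ankrd1 chr19:36119845-36120094 (- strand): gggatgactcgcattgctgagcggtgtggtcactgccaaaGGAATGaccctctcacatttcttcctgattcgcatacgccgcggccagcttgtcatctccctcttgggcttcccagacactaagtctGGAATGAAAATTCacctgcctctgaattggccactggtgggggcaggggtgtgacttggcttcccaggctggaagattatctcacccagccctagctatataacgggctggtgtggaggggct
Lats2 chr14:57746104-57746133 (- strand): cacgtgacgcccgtGGAATGccaacaatgt
In Cyr61, the opposite-strand match lay at -103 to -98 and TTCNNGAA at -82 to -75. The 2 matches in Ankrd1 began at -210 and -123, and the latter shared its last base with GAANNTTC. The other first matches began at -141 in Yap1, at -65 in Amotl2 on the opposite strand, at 5 in Lats2 and, in Wwtr1, at -136 from 1 start and -170 from the other.

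The libraries held between 15319300 and 27668395 reads in genes (median 19119552). The deposited values are reads divided by a size factor for each library, called signal here, and 1 read was worth between 0.699 and 1.38 of signal. Tgm2, the targeted gene (chr2:158116402-158146436), was lower in the KO libraries but still read. Its signal was 1750.3, 1635 and 1606 in the WT control and 1189, 1032 and 1065 in the KO control (log2 fold change -0.60, SE 0.19, limma adjusted p = 0.0104), and KO heat shock replicate 2 stood apart at 526. A count over the whole gene does not show which exons were read. Tgm2 shares 1003 exonic bases on the other strand with Rprd1b and Gm20412, and the sources used here do not say whether strand was used in counting. The call of Tgm2 ended with quantile normalisation (-0.56), with edgeR (-0.58), without WT control replicate 1 (-0.57) and without KO control replicate 2 (-0.56). In each of these the fold was just under 1.5. Between the heat-shocked groups Tgm2 was 2.36-fold lower in KO cells (log2 fold change -1.24, SE 0.19, limma adjusted p = 3.32e-05). Every KO library there lay below every WT library. Of 10 fibroblast markers, 8 had a mean signal of at least 10 in every group, while Lum stayed between 2.37 and 7.82 on average and Fap had no read in KO cells. Levels of the 8 differed between the lines. Col1a1 (98358 in the WT control against 12738 in the KO control), Pdgfra (9001 against 3034.5) and Pdgfrb (3572 against 2322) had the lower mean in the KO control. Thy1 (517 against 8249), Fn1 (30923 against 76651), Vim (35200 against 71627), Dcn (1823 against 3016) and Col1a2 (24250 against 32617) had the higher one. Epithelial, endothelial and skeletal muscle markers summed to at most 55.1 in any library. Macrophage markers summed to between 4323 and 5796 in WT and between 1414 and 1814 in KO libraries, with 3 of 6 at a mean of at least 10. Csf1r carried most of this in WT cells (4332 in the WT control against 12.3 in the KO control) and Cd14 in KO cells (183 against 1544), while the defining marker Adgre1 had no read in any group. The 5 smooth muscle markers summed to between 2442 and 3607 in WT and between 828 and 1112 in KO libraries. Of these, Acta2 had the lower mean in the KO control (398, against 2459 in the WT control), whereas Des (205 against 9.04), Actg2 (125 against 10.3), Cnn1 (168 against 95.1) and Myh11 (4.56 against 2.68) had the higher one. The part of these differences in the results below was not tested.

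**Figure D1:**
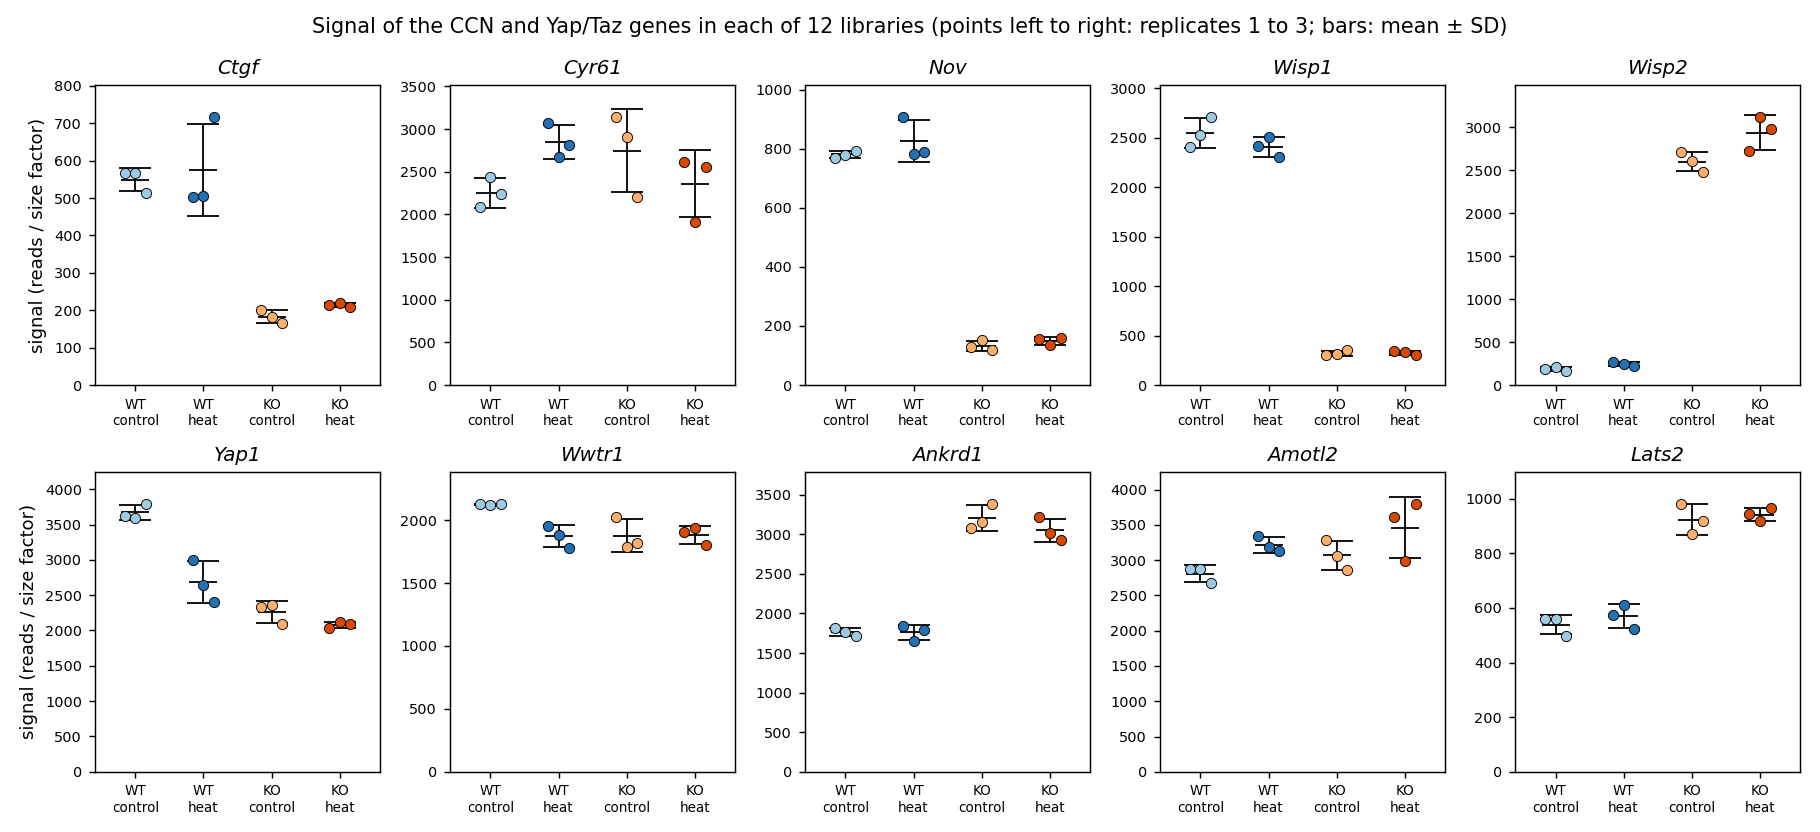
Signal (reads divided by the size factor of the library) of each of the 10 genes, with 1 panel per gene, an axis from 0, and WT groups to the left of KO groups. Points are libraries, from left to right replicates 1 to 3, and bars are the mean ± SD (n = 3). Ctgf, Nov and Wisp1 are low in all 6 KO libraries, Wisp2 is high in all 6, and Cyr61 shows no such split.

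The first comparison asked which of these genes differed between KO and WT cells at 37 °C. Within the CCN family the change went in both directions: Ctgf, Nov and Wisp1 were 3.0-fold, 5.88-fold and 7.91-fold lower in KO cells, and Wisp2 was 13.8-fold higher. Cyr61 was not called. In the pathway, Yap1 was 1.63-fold lower, Ankrd1 was 1.82-fold higher and Lats2 was 1.71-fold higher. A gene was called at a limma adjusted p of at most 0.05 (Benjamini-Hochberg over all 14201 genes tested) and a fold of at least 1.5. By this rule 7 of the 10 genes were called, 3 higher and 4 lower, where 48.8% of all genes tested were called (22.9% higher and 25.8% lower). The libraries did not overlap for 8 of the 10, against 76.4% of all genes. So many genes differed between the 2 lines that the share called among these 10 says little about them as a set, and the sizes and directions are what the data give. The median of all genes was -0.04 on the log2 scale. The size factors of the libraries hold this median near 0, so a change shared by most genes would not show. The fold changes are thus relative to the bulk of the genes.

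Ctgf (CCN2, chr10:24595442-24598683, + strand) encodes connective tissue growth factor, a profibrotic matrix protein and the standard readout of Yap activity. Its signal was 568, 567 and 513 in the WT control libraries and 200.4, 182 and 165 in the KO control libraries. Every KO library lay at less than any WT library. The log2 fold change was -1.59 (SE 0.12, limma adjusted p = 2.08e-08). Ctgf shares 665 exonic bases with Gm15270 on the other strand, so without strand some reads could belong to either gene. Gm15270 itself had a mean signal of 13.5 in the WT control and 4.94 in the KO control.

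Nov (CCN3, chr15:54745702-54754039, + strand) encodes a CCN protein that restrains proliferation and counters several actions of CCN2. In the WT control its signal was 770.4, 779.8 and 794, against 129, 151 and 118 in the KO control. The groups were far apart, with a log2 fold change of -2.56 (SE 0.10, limma adjusted p = 1.01e-11). Wisp1 (CCN4, chr15:66891320-66923201, + strand), a Wnt-inducible CCN gene that promotes fibroblast growth, was high in WT cells at 2409, 2528 and 2711. In KO control cells it was read at 304, 309.6 and 350.5. This was the strongest decrease among the 10 genes, at -2.98 on the log2 scale (SE 0.07, limma adjusted p = 4.27e-14).

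Wisp2 (CCN5, chr2:163820861-163833146, + strand) encodes the CCN protein that lacks the C-terminal module and is known to oppose CCN2 in fibrosis. It was the gene of the 10 with the widest difference, and the only CCN gene called higher. Its signal was 189, 212 and 163 in the WT control and 2709.6, 2609.8 and 2485 in the KO control (log2 fold change 3.79, SE 0.10, limma adjusted p = 6.27e-14). Cyr61 (CCN1, chr3:145646976-145649981, - strand), an immediate early gene that supports adhesion and blood vessel growth, behaved unlike the other 4. The signal was 2089, 2434 and 2236 in the WT control and 3140.1, 2903 and 2202 in the KO control, and the groups overlapped because of KO control replicate 3. The log2 fold change was 0.27 (95% interval -0.00 to 0.55, limma adjusted p = 0.0675), and it was 0.42 without that library (adjusted p = 0.00454), still under 1.5-fold. With all libraries kept, the adjusted p was 0.0157 with edgeR, 0.0184 with DESeq2 and 0.0437 with quantile normalisation. Over the alternatives it ran from 0.00454 to 0.267, with no call in any. Wisp3, the remaining CCN gene, had 0 reads in each of the 12 libraries.

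The CCN genes can be compared with one another once the signal is divided by the length of their exons. Summed per kb, the 5 read CCN genes reached 2136 ± 104 (SD, n = 3) in WT control and 2463 ± 115 in heat-shocked WT cells, and 2881 ± 304 in KO control and 2882 ± 124 in heat-shocked KO cells. On this scale the mean sum was higher in KO than in WT cells at both temperatures. By signal alone the mean sum was lower in KO cells at both, so the order rests on the exon lengths. These join the exons of all annotated transcripts, 5565 bases for Wisp1 and 1924 for Wisp2. The make-up of the sum per kb differed as well. Wisp2 supplied 4.58% ± 0.519 of it in the WT control and 47.1% ± 3.16 in the KO control. Wisp1 went the other way, from 21.5% ± 1.28 to 2.03% ± 0.389, as did Nov, from 12.8% ± 0.564 to 1.61% ± 0.170, and Ctgf, from 9.01% ± 0.700 to 2.22% ± 0.0623. Cyr61 supplied 52.2% ± 1.49 and 47.0% ± 3.61, and after heat shock 57.3% ± 1.28 in WT and 40.4% ± 5.39 in KO cells, with each KO library below every WT library at the same temperature. Shares of a sum are not independent, and no test was run on them.

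**Figure D2:**
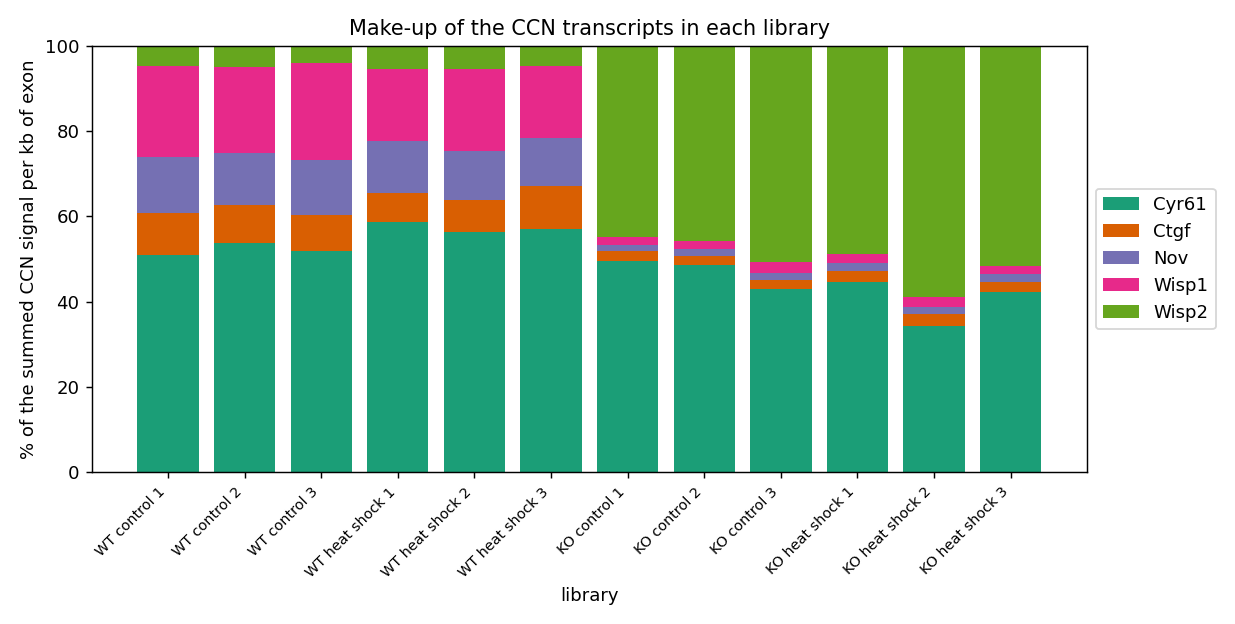
Stacked bars give, for each of the 12 libraries, the percentage of the summed CCN signal per kb of exon that came from Cyr61, Ctgf, Nov, Wisp1 and Wisp2. WT libraries hold mostly Cyr61 and Wisp1 and KO libraries mostly Cyr61 and Wisp2, with Wisp2 at 58.962% in KO heat shock replicate 2, where Cyr61 is at 34.333%.

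Yap1 (chr9:7931999-8004596, - strand) encodes Yap, and of the 2 coactivator genes it was the one called. The WT control libraries gave 3627, 3596 and 3793 and the KO control libraries 2339.5, 2355 and 2089, with no overlap. The log2 fold change was -0.70 (SE 0.07, limma adjusted p = 4.30e-07). Wwtr1 (chr3:57455649-57575910, - strand), the gene of Taz, was close to level, at 2126, 2125 and 2130.1 in the WT control and 2026, 1788 and 1820.2 in the KO control. All 3 KO values were below the WT values, but by 1.13-fold only (log2 fold change -0.18, 95% interval -0.30 to -0.06, limma adjusted p = 0.0103), so it was not called. Per kb of exon, the ratio of Yap1 to Wwtr1 was 0.891 ± 0.0245 (SD, n = 3) in the WT control and 0.623 ± 0.0494 in the KO control. Wwtr1 was thus read above Yap1 in every group on this scale, by more in KO cells, and no test was run on the ratio. By signal alone, Yap1 was above Wwtr1 in every group. The order per kb rests on the exon lengths, 9257 bases for Yap1 and 4779 for Wwtr1, which join the exons of all annotated transcripts.

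**Figure D3:**
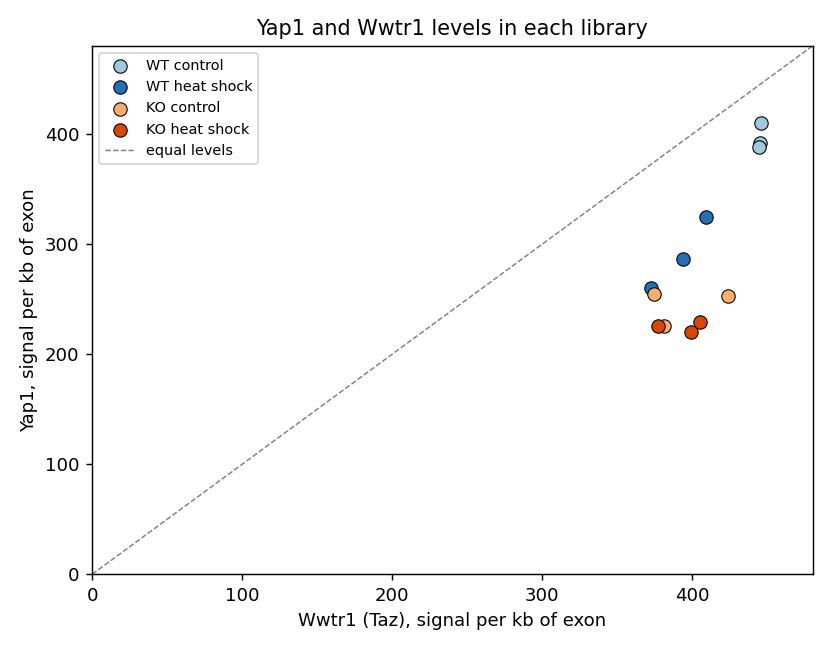
Each point is a library, with the Wwtr1 signal per kb of exon on the horizontal axis and the Yap1 signal per kb of exon on the vertical axis, and the dashed line marks equal levels. WT control libraries lie nearest to the line (ratio 0.891) and heat-shocked WT libraries next (0.739). The KO control (0.623) and heat-shocked KO libraries (0.571) lie furthest from it, and the libraries spread further along the Yap1 axis than along the Wwtr1 axis.

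The remaining pathway genes, Ankrd1, Lats2 and Amotl2, did not follow Yap1 downwards. Ankrd1 (chr19:36111961-36120099, - strand), a stretch-responsive ankyrin repeat protein of the nucleus and sarcomere, was read at 1817, 1761 and 1715 in the WT control and at 3076, 3154 and 3385 in the KO control. The KO values were all higher, with a log2 fold change of 0.86 (SE 0.06, limma adjusted p = 3.64e-09), the opposite direction to Ctgf. Lats2 (chr14:57689662-57758388, - strand), the kinase that inhibits Yap, was at 558, 558 and 498 in WT control and 981, 869 and 919 in KO control libraries. This was an increase of 0.78 on the log2 scale (SE 0.07, limma adjusted p = 2.05e-07). In the annotation Lats2 shares 2955 exonic bases on its own strand with Gm49361, which was not analysed here. Amotl2 (chr9:102716672-102733418, + strand), a motin that tethers Yap at cell junctions, gave 2870.1, 2879 and 2669.5 in the WT control and 3281, 3059 and 2859 in the KO control. Those groups overlapped, and the log2 fold change of 0.13 (95% interval -0.04 to 0.30, limma adjusted p = 0.159) was not called.

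The same comparison after heat shock used the other 6 libraries. Of the 10 genes, 6 were called, 3 higher and 3 lower, against 48.7% of all genes (23.2% higher and 25.5% lower), and 8 had libraries that did not overlap, against 78.4%. Wisp2 was higher at 2722, 3120.2 and 2979 in the KO heat shock against 269, 250.1 and 220.4 in the WT heat shock group, 11.9-fold (log2 fold change 3.57). Wisp1 fell to 340.2, 337 and 303 from 2416, 2507 and 2306 (-2.88), and Nov to 155, 135 and 158 from 908, 783 and 788 (-2.46). Ctgf was also called lower, at 214, 219.9 and 208 against 503, 505 and 716 (-1.40), and Ankrd1 (0.79) and Lats2 (0.73) were called higher, so these 6 genes had the direction that they had at 37 °C. Their limma adjusted p lay between 6.51e-14 and 4.38e-07. Yap1 was the gene that left the list: it was lower in each KO library, yet by 1.29-fold only (log2 fold change -0.36, SE 0.07, limma adjusted p = 3.31e-04). Cyr61 lay at 3066, 2676 and 2815 in WT heat shock and 2610.0, 1906 and 2556 in KO heat shock libraries. It was lower in all 3 KO libraries, and not called (log2 fold change -0.29, limma adjusted p = 0.0562). Over the alternatives its adjusted p ran from 0.0217 to 0.302, with no call in any. The highest was without KO heat shock replicate 2, the library in which Tgm2 stood apart, where the log2 fold change was -0.14.

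**Figure D4:**
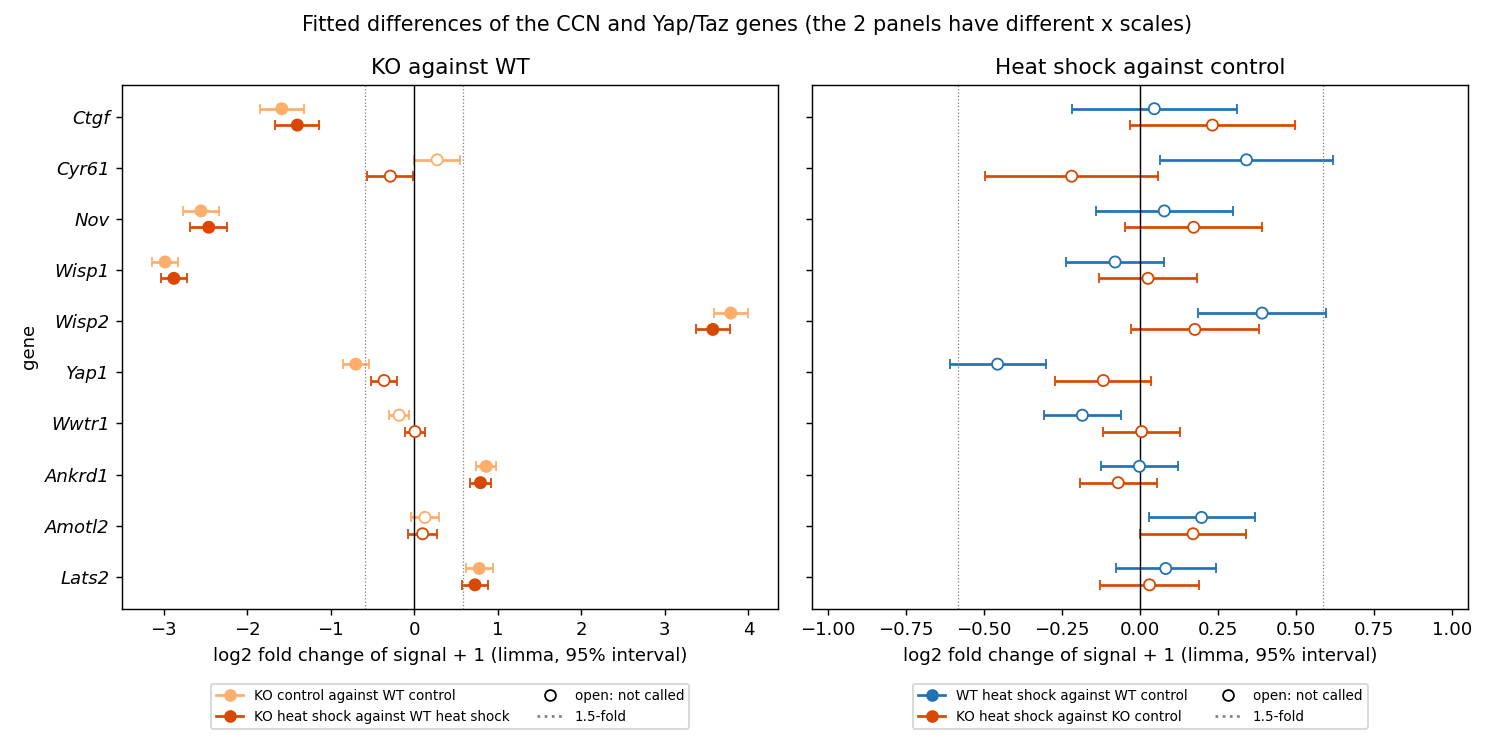
Fitted log2 fold changes of the 10 genes with 95% intervals from limma, for KO against WT at 37 °C and after heat shock (left) and for heat shock against control in WT and in KO cells (right). Filled points are called and open points are not, dotted lines mark 1.5-fold, and the panels differ in scale. Differences between the lines reach 3.79 for Wisp2, whereas all points for heat shock lie within the 1.5-fold lines. The intervals of Yap1, Cyr61 and Wisp2 for heat shock in WT cells cross these lines.

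The next comparison asked whether 20 min at 42 °C moved these genes. In WT cells none of the 10 was called by limma, nor by edgeR or DESeq2, where 3.68% of all genes were called by limma. At an unadjusted p under 0.05 there were 5 of the 10, against 40.8% of all genes, and 3 had an adjusted p of at most 0.05 at any fold, against 28.8%. Yap1 was the clearest of the 3. Its signal of 3001, 2649 and 2407 after heat shock lay below all 3 WT control values, 1.37-fold lower (log2 fold change -0.46, SE 0.07, limma adjusted p = 9.04e-04). Wisp2 was 1.31-fold higher at 269, 250.1 and 220.4 (0.39, SE 0.10, limma adjusted p = 0.00909), also without overlap with the control. Wwtr1 was 1.14-fold lower at 1956, 1880.2 and 1780.0 (-0.19, SE 0.06, limma adjusted p = 0.0278), and its adjusted p was 0.109 without WT heat shock replicate 3.

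Cyr61 and Amotl2 were each higher in all 3 heat-shocked WT libraries than in the control ones. Cyr61 moved from a mean of 2253 ± 173 (SD, n = 3) to 2852 ± 198 (log2 fold change 0.34, limma adjusted p = 0.0614), with an adjusted p between 0.00384 and 0.167 over the alternatives and no call in any. Amotl2 was at 3335, 3188 and 3123 after heat shock (0.20, limma adjusted p = 0.0764). With Wisp2, Yap1 and Wwtr1 these were the 5 genes whose WT libraries did not overlap, where 42.4% of all genes did not. The remaining genes overlapped: Ctgf at 503, 505 and 716, Nov at 908, 783 and 788, Wisp1 at 2416, 2507 and 2306, Ankrd1 at 1845, 1656 and 1787, and Lats2 at 574, 612 and 524. Their log2 fold changes ran from -0.08 to 0.08, and the wide spread of Ctgf came from replicate 3.

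In KO cells none of the 10 genes changed with heat shock beyond the spread between libraries by the test. None was called by limma, edgeR or DESeq2 (0.887% of all genes by limma), and 0 of the 10 had an unadjusted p under 0.05, where 16.7% of all genes did. Ctgf was read at 214, 219.9 and 208 after heat shock and Wisp2 at 2722, 3120.2 and 2979, and these 2 were the genes whose libraries lay above all of their controls, against 21.6% of genes apart in either direction. Neither passed the test (log2 fold changes 0.23 and 0.18, limma adjusted p = 0.376 and 0.388). Yap1 was at 2037, 2118 and 2088, overlapping the KO control (-0.12, 95% interval -0.27 to 0.04). The motin gene Amotl2 was at 3607, 2981 and 3798 (0.17, 95% interval -0.00 to 0.34, limma adjusted p = 0.300), with replicate 2 within the range of the control. Wwtr1, at 1908, 1936 and 1803, differed by 0.00 (95% interval -0.12 to 0.13). A change of 1.5-fold lay outside this interval, as it did for each of the 10 genes in this comparison. Cyr61 had the widest spread, with values from 1906 to 2610.0 after heat shock and from 2202 to 3140.1 before it. Its log2 fold change of -0.22 (95% interval -0.50 to 0.06) became -0.07 without KO heat shock replicate 2 and -0.37 without KO control replicate 3. Ankrd1 (3214, 3015 and 2928), Lats2 (943, 917 and 965), Nov and Wisp1 overlapped their controls, with log2 fold changes from -0.07 for Ankrd1 to 0.17 for Nov.

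Whether the response to heat shock differed between the lines was tested as the response in KO minus that in WT. None of the 10 genes was called, and none of the 14201 genes by limma (percentage called 0). At an unadjusted p under 0.05 there were 3 of the 10 and 2532 of all genes (17.8%), and edgeR called 10 and DESeq2 called 35 of all genes and none of the 10. The 3 were Cyr61 (-0.56, SE 0.18, limma adjusted p = 0.173), Yap1 (0.34, SE 0.10, limma adjusted p = 0.155) and Wwtr1 (0.19, SE 0.08, limma adjusted p = 0.246). Cyr61 thus had a positive fitted change in WT and a negative one in KO cells, and Yap1 and Wwtr1 a lower level after heat shock in WT cells without a matching difference in KO cells, but none of the 3 differences passed the correction. Over the alternatives the adjusted p for Cyr61 ran from 0.0271 to 0.352 and that for Yap1 from 0.0376 to 0.334, with no call in any. For the other 7 genes the fitted difference ran from -0.22 for Wisp2 to 0.19 for Ctgf, and each 95% interval held 0.

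The genes were also set in order by signal per kb of exon, with the exons of all annotated transcripts joined, and the order rests on these lengths. By signal alone, Yap1 (3672), Amotl2 (2806) and Wisp1 (2549) were above Cyr61 (2253) in the WT control. Per kb, Cyr61 led in the WT control (1116 ± 85.8, SD, n = 3), followed by Ankrd1 (611 ± 17.6). Wisp1 (458), Amotl2 (446) and Wwtr1 (445) came next, and each overlapped its neighbour. Yap1 (397), Nov (272), Ctgf (192), Wisp2 (97.8) and Lats2 (77.2) followed, with no overlap between neighbours. In the KO control, Cyr61 (1361 ± 241) and Wisp2 (1352 ± 58.5) were together at the top and overlapped, ahead of Ankrd1 (1110.6), Amotl2 (488), Wwtr1 (393), Yap1 (244) and Lats2 (132). Ctgf (63.8) and Wisp1 (57.8) overlapped near the bottom, and Nov (46.3) was lowest. After heat shock the order in KO cells put Wisp2 (1528) above Cyr61 (1168), which overlapped Ankrd1 (1058), and the order in WT cells again ran from Cyr61 (1413) to Lats2 (81.8).

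Across the 12 libraries, the log2 signals of Ctgf, Nov and Wisp1 varied together (Pearson r between 0.971 and 0.992) and ran against those of Wisp2, Ankrd1 and Lats2 (r between -0.996 and -0.962). Cyr61 varied apart from Ctgf (r = 0.0120). The points are 2 lines and 2 temperatures, so any pair of genes that differs between the lines gives a high r, and the values are a description. The genes with the pattern most like that of Ctgf were Tuba1b (r = 0.993), Slc25a5 (r = 0.990) and Tuba1a (r = 0.990), encoding 2 alpha-tubulins and a mitochondrial ADP/ATP carrier. Those nearest to Cyr61 were Ctnnbip1 (r = 0.823), Dnajb11 (r = 0.793) and Fhl3 (r = 0.753), all over 12 libraries.

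The genes around these 10 were read from 5 lists, described by counts without a set test. Of 24 upstream Hippo kinases and regulators, 1 was called higher and 4 lower in the KO control, where 22.9% of all genes were called higher and 25.8% lower (48.8% in all), and the median was -0.04, as over all genes. The atypical cadherins Dchs1 (-4.36) and Fat4 (-4.04), which bind each other between cells and feed into the Hippo cascade in flies, fell, as did the kinase Taok3 (-1.49), and the Hippo kinase gene Stk4 rose (0.66). Dchs1 was at 381 ± 33.0 (SD, n = 3) in the WT and 18.3 ± 6.11 in the KO control, and Fat4 at 1343 ± 60.9 and 81.3 ± 12.7. Of other genes of the cascade, Lats2 was called higher, and Lats1, Nf2 and Stk3 were not called. Lats1 was at -0.39 (limma adjusted p = 0.00246), Nf2 at 0.43 (limma adjusted p = 1.22e-06) and Stk3 at 0.25 (limma adjusted p = 0.0209).

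Tead factors bring Yap and Taz to DNA, and Vgll proteins compete with or stand in for them. Of 8 such genes 6 were tested, and 3 were called higher and 1 lower in the KO control, beside the same 22.9% and 25.8% of all genes (median 0.49, against -0.04 over all genes). Tead4 (1.498), Tead3 (1.34) and Tead1 (0.66) rose, and Vgll4, a repressor that competes with Yap for Tead, fell (-1.65). Tead1, the most highly read of the 3, went from 2028 ± 89.8 (SD, n = 3) to 3203 ± 204. In the WT heat shock group Tead1 was at 1464 ± 263, 0.48 lower on the log2 scale than in the control (limma adjusted p = 0.0038), which was under 1.5-fold, and it was called lower when WT heat shock replicate 1 was left out (-0.60).

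Of 17 other Yap/Taz target genes, 3 were called higher and 6 lower, close to the 48.8% of all genes called in either direction (median -0.01, also with genes that had no read set at their bounds). Igfbp3, which binds insulin-like growth factors, had 0 reads in the 3 KO control libraries and was at 189 ± 22.8 (SD, n = 3) in the WT control, at least 191-fold higher in WT (floor of 3 reads over the group). Fjx1, a kinase of the Golgi that modifies Fat cadherins in flies as four-jointed, was at least 58.9-fold higher in WT in the same way. Foxf2 (-3.13) and Rbms3 (-3.07) also fell. Among 11 tested receptors that bind CCN proteins, 4 were called higher and 4 lower, against 22.9% and 25.8% of all genes (median -0.31). Notch1 (1.69), Itga6 (1.58) and the proteoglycan gene Sdc4 (1.37) rose, and Itgb3, the beta subunit of the vitronectin receptor that binds CCN1 and CCN2, fell from 869 ± 17.7 to 64.2 ± 13.05 (-3.76). Of 11 genes of the TGF-β and serum response pathways that induce CCN genes, 7 were called lower and 0 higher, against 25.8% and 22.9% of all genes (median -0.63). Those called lower included Smad7 (-2.38), an inhibitor that TGF-β induces, the Srf coactivator gene Mkl1 (-2.26), the receptor gene Tgfbr1 (-1.72) and Tgfb1 (-1.43), the gene of the ligand itself.

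**Figure D5:**
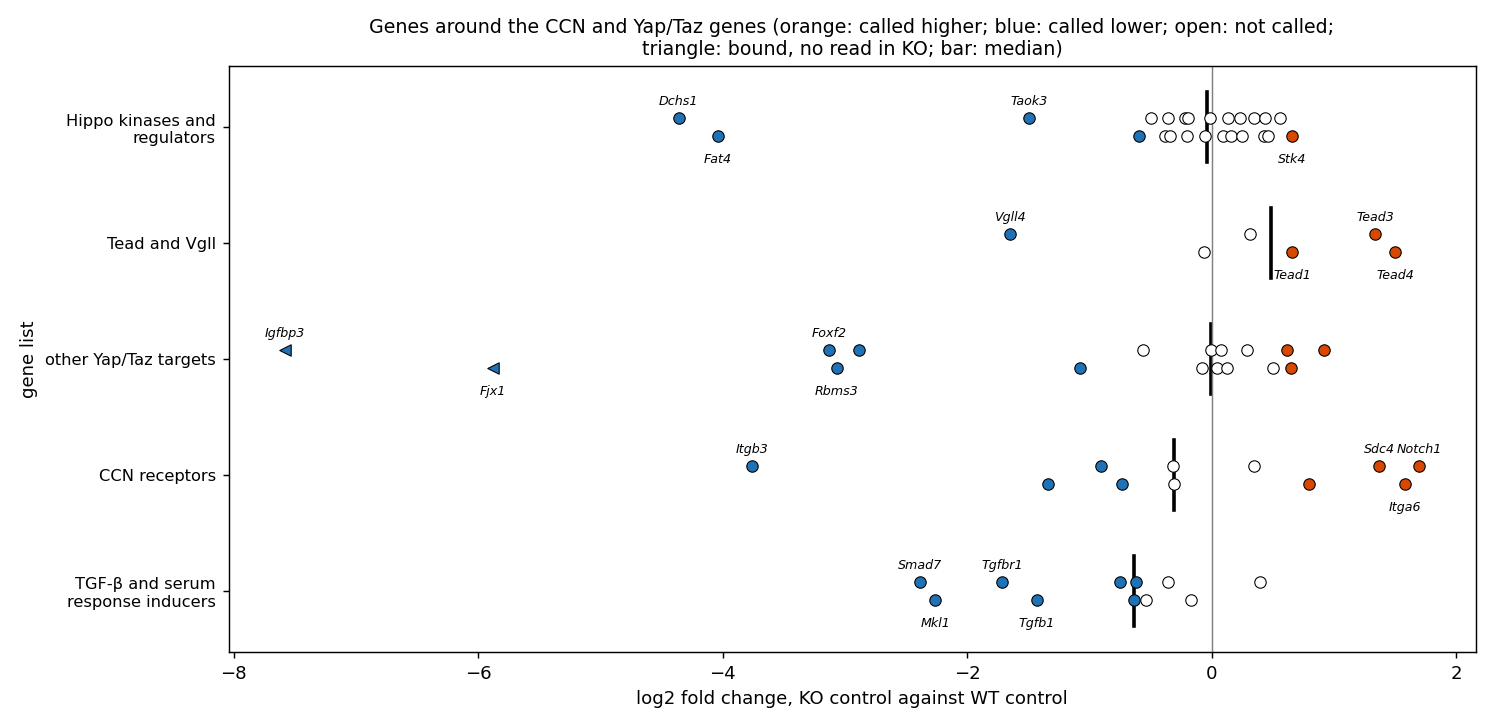
Log2 fold changes in the KO control against the WT control for the tested genes of 5 lists, 1 row per list. Orange points were called higher, blue ones lower and open ones not called; triangles are lower bounds on the size of the decrease for genes with no read in KO cells (Igfbp3 and Fjx1), and bars are medians. The median of the TGF-β and serum response list lies at -0.63 and that of the Tead and Vgll list at 0.49.

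After heat shock the KO against WT counts in these lists were 3 higher and 4 lower for the Hippo list, 3 and 1 for the Tead and Vgll list, 3 and 7 for the targets, 5 and 3 for the receptors, and 0 and 4 for the inducers, where 23.2% of all genes were called higher and 25.5% lower. With heat shock, 2 of the listed genes were called in WT and 1 in KO cells, where 3.68% and 0.887% of all genes were called. In WT cells Mob1b, a coactivator of the Lats kinases, fell from 621 ± 73.4 (SD, n = 3) to 349.9 ± 46.5 (-0.83, limma adjusted p = 5.33e-04). Its mean was also lower after heat shock in KO cells, at 359 ± 22.6 against 489 ± 56.2, but it was not called (-0.44, limma adjusted p = 0.0598). Lrp1, a scavenger receptor that takes up CCN proteins, rose from 16011 ± 1771 to 25548 ± 1354 in WT cells (0.68, limma adjusted p = 1.22e-04). In KO cells it rose from 12870.0 ± 31.8 to 20081 ± 1391 (0.64, limma adjusted p = 2.69e-04), and both calls ended with quantile normalisation (0.49 and 0.50). No other gene of the 5 lists was called with heat shock in either line, and none in the difference between the responses.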

How the data were processed

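Polyadenylated RNA was sequenced from 12 MEF libraries. Per the labels, reads were trimmed with cutadapt 1.10 and aligned with STAR 2.5.2; the submitters' notes name the mm9 build, while the methods of the study name GRCm38 and HTSeq-count, and the table has 1 row per gene. The deposited signal is the count of a gene after the authors had scaled it with the DESeq2 size factor of its library. Divided by the value of 1 read, 100% of the signals came within 0.01 of a whole number, so reads were recovered for edgeR and DESeq2.

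Genes that reached a signal of 10 in 3 or more libraries (14201 of 45808) were tested with limma 3.58.1 in R 4.3.3 on log2(signal + 1), with 1 mean per group over all 12 libraries, an intensity trend and Benjamini-Hochberg adjustment. Fold changes on this scale understate the change of low genes. A call needed both an adjusted p at or under 0.05 and a 1.5-fold difference or more. The alternatives were a pseudocount of 5, no filter, a filter of 50, quantile normalisation, edgeR 4.0.16 (quasi-likelihood, TMM), DESeq2 1.42.0, the replicate number as a block, only the groups compared, and leaving out each library. The scripts were tested on simulated data.

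The 10 genes, the pathway and marker lists and the tests were chosen with earlier results of these data known. All 10 genes are named, with Tgm2. From each pathway list up to 4 called genes with the widest change between the control groups and up to 2 in each heat shock comparison are named, with Tead1, Lats1, Nf2 and Stk3 in any case, and for Ctgf and Cyr61 the 3 most alike genes with a mean signal of at least 100. The results for 1 gene of the TGF-β and serum response list are not reported here, and it was left out of that list's counts and median. Coordinates and exon lengths were taken from GENCODE M21 on GRCm38, in which the CCN genes are called Ccn1 to Ccn5, by symbol and older symbol. Intervals cover 95%.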

Additional observations from a re-analysis of the deposited data

How the results depend on the processing

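The counts of the 10 genes called (7, 0, 0, 6 and 0 in the 5 comparisons) were the same under every alternative that was run, and the 13 calls behind them kept their direction. Over all genes, 523 were called for heat shock in WT cells, 327 with a filter of 50 (fewer genes tested), and between 313 (without WT control replicate 3) and 759 when 1 library was left out. For the difference between the responses, 0 genes were called, against 12 with a pseudocount of 5, 3 with a filter of 50, 4 with quantile normalisation, 10 with edgeR, 35 with DESeq2, and between 0 and 134 (without WT control replicate 1) when 1 library was left out. The cause was not tested.

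Quantile normalisation moved the median of all genes between the control groups from -0.04 to 0.09 and the calls from 3255 higher and 3669 lower to 4074 and 3170, and after heat shock from 3288 and 3622 to 3996 and 3150. Sign changes occurred only in uncalled differences near 0. Ankrd1 in heat-shocked WT cells was at 0.0015 with quantile normalisation, 0.00087 with edgeR and 0.0058 with DESeq2, and Wwtr1 in heat-shocked KO cells at -0.0054 with edgeR. When 1 library was left out, the heat shock difference in WT cells ran from -0.12 to 0.13 for Ctgf and from -0.036 to 0.042 for Ankrd1. That in KO cells ran from -0.013 to 0.089 for Wisp1, from -0.029 to 0.060 for Wwtr1 and from -0.013 to 0.075 for Lats2. Heat-shocked KO against WT cells gave -0.028 to 0.040 for Wwtr1, and the difference between the responses -0.098 to 0.077 for Amotl2 and -0.11 to 0.0026 for Lats2.

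The replicate numbers gave no pairing across all 4 groups. Of 18 correlations between same-numbered libraries, 2 were above 0.1. Both joined the WT control and KO control, at 0.205 for replicate 1 and 0.158 for replicate 3. In these 2 groups, the mitochondrial share of reads also rose with the replicate number. It was 0.687%, 0.892% and 1.19% in WT control and 0.674%, 0.816% and 1.13% in KO control libraries. For 6 of 12 libraries, the mean correlation with the other groups was highest at their own number. With the replicate number as a block, 6932, 503, 113, 6917 and 0 of all genes were called in the 5 comparisons, and no call among the 10 genes changed. Each of the 10 genes had at least 408 reads in each group of 3 libraries, and how depth or the number of libraries limits the calls was not tested.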

Other observations

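Of 5 chondrocyte markers, 3 or 4 had a mean signal of at least 10 in each group, and they summed to between 2043 and 2763 in WT and between 1096 and 1286 in KO libraries. Sox9 carried most of this sum in both lines (2068 in the WT control against 1119 in the KO control). Acan (58.01 in the WT control) and Col2a1 (49.8) added little and also had the lower mean in the KO control. Comp did not (9.71 against 10.7), and Matn1 had no read in either control group. Of 5 neural markers, 3 had a mean signal of at least 10 in WT and 2 in KO groups, with sums between 1994 and 2437 in WT and between 1628 and 1902 in KO libraries. Map2 was at 516 in the WT control and 0 in the KO control. Nes went the other way (506 against 731), and Tubb3 was close to level (1047 against 1022). Sox2 and Elavl3 had means of at most 1.28 in any group.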
